A study of Mus musculus with 6 samples.

Results

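The genes described here encode the insulin-like growth factor (IGF) ligands, the receptor that clears IGF2, and the secreted IGF binding proteins. They were chosen by name from the deposited table of gene expression. They are Igf1, Igf2, Igf2r and Igfbp1 to Igfbp7, 10 of the 21966 genes in the table, and a row was found for each. Primary colonic cells grown out of mouse intestinal tumors were compared with and without the Pak inhibitor domain (PID), a piece of Pak1 that blocks Group I p21-activated kinases. PID+ cells (mice 4, 7 and 26) carried the transgene CDX2P-NLS-Cre, 1 deleted Apc allele (Δ/+) and the ROSA26-PID allele, and PID- cells (mice 1, 2 and 3) carried the first 2 of these alone. In the labels the PID- samples are normal and untreated, but in the study both groups carried Cre and the Apc deletion and came from tumors of animals followed for 8 months. The inhibitor was GST-tagged and shared its transcript with a separately translated fluorescent reporter. Cre came from the CDX2 promoter, which acts in gut epithelium, chiefly that of the colon. Polyadenylated RNA was sequenced, and the deposited table holds 1 pooled FPKM (fragments scaled to transcript length and to library size) for each gene and condition. The labels list 3 mice per condition, whereas the methods speak of 3 replicated sequencing runs merged into 1 alignment. No value per mouse was analysed here, so the differences cannot be set against a spread between mice, and no p-value was computed.

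IGF1 and IGF2 are small secreted hormones that activate the receptor tyrosine kinase IGF1R, and through it the PI3K and Akt arm and the MAP kinases. IGF2R carries no kinase: it takes IGF2 from the cell surface to lysosomes and also sorts enzymes that bear mannose 6-phosphate. IGF binding proteins hold the ligands outside the cell and either withhold or deliver them, and IGF2 is a frequently overexpressed growth factor in colorectal tumors.

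The cells expressed the binding side of the system and almost no ligand. Of the 10 genes, 4 reached an FPKM of 2 in the higher condition (Igf2r, Igfbp3, Igfbp4 and Igfbp7), and the other 6 stayed below 1 in both. Igfbp3 dominated in both conditions. A gene was called changed when FPKM + 1 differed at least 3-fold, a log2 change of 1.58, and it could be met only by the 4 members that reached an FPKM of 2. Of these 1 met it, Igfbp4, which was lower in PID+ cells, and 0 were at least 3-fold higher. Among the 11035 genes that reached an FPKM of 2 in a condition, 2.08% were at least 3-fold higher and 3.42% at least 3-fold lower. At 2-fold, Igfbp4 and Igfbp7 were lower and no member was higher, against 6.14% of genes higher and 7.05% lower. The deposited confidence intervals were apart in none of the 10 members, of which only the 4 that reached an FPKM of 2 compare with the 11035 genes. Of those genes, 0.362% had intervals apart and were higher in PID+ cells, and 1.07% had intervals apart and were lower. The median log2 change was -0.18 over all 10 members and -1.02 over the 4 that reached an FPKM of 2, beside -0.01 over the 11035 genes. Log2 changes here are PID+ over PID-, with 1 added to each FPKM, which shrinks the change of a gene with a low FPKM.

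**Figure D1:**
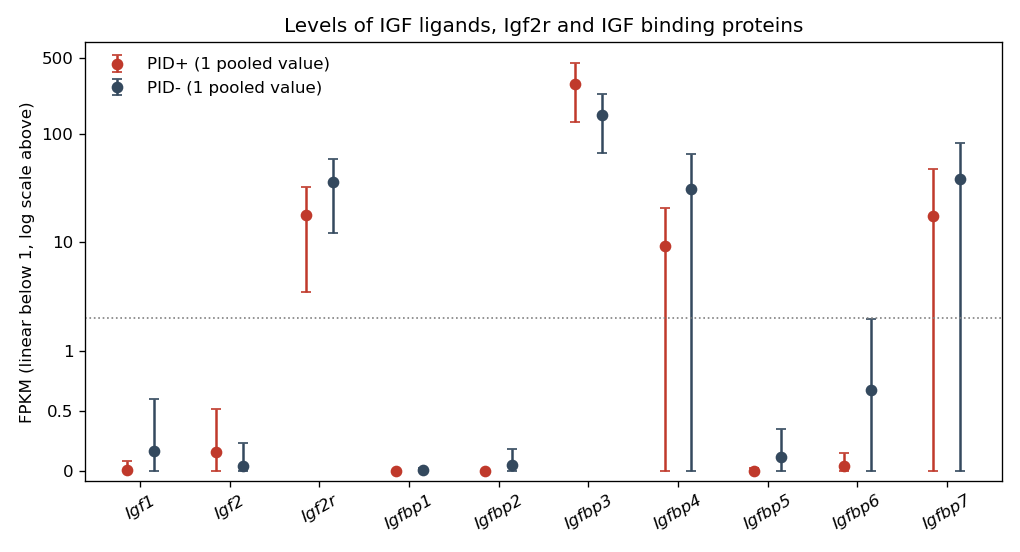
FPKM of the 10 genes in PID+ and PID- cells, with 1 pooled value per condition and bars for the deposited confidence interval; the axis is linear below 1 and logarithmic above, and the dotted line marks an FPKM of 2. Igfbp3 stands highest at 291 and 151, the intervals of each gene overlap between conditions, and 6 genes lie below 1.

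Both ligand genes were close to the lower limit of the measurement. Igf1, a product of stromal cells in many tissues, had an FPKM of 0.00958 in PID+ cells (interval 0 to 0.0894) and 0.171 in PID- cells (0 to 0.604). Igf2, the imprinted fetal ligand, had 0.160 in PID+ cells (0 to 0.514) and 0.0414 in PID- cells (0 to 0.232). By an estimate from the value of a single read, approximate because both genes have several transcripts, Igf1 rests on about 5 reads in PID+ and 111 in PID- cells and Igf2 on about 50 and 18. The ratio of PID- to PID+ was 17.8 for Igf1, with a counting interval of 6.74 to 50.9, and 0.259 for Igf2, with one of 0.144 to 0.458. These cover counting error only, and the deposited intervals overlapped for both ligands. The log2 change was -0.21 for Igf1 and 0.16 for Igf2, and the latter became -0.09 when the median of its chromosome was subtracted. Together the ligand genes came to 0.169 FPKM in PID+ and 0.212 in PID- cells. Igf2 shares 3596 of its 5723 annotated exon bases with Gm49394, a protein coding gene on the same strand, and 98 with the antisense gene Igf2os. Reads in these shared stretches cannot be assigned to Igf2 alone, for Igf2os because the library kit does not mark strand.

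The low ligand values were accompanied by low values for other hormones of the superfamily. Of 7 insulin and relaxin genes listed, Ins1, Ins2 and Rln3 were listed at 0 in both conditions, and Insl3 alone reached an FPKM of 2. Insl3, a testicular and ovarian hormone, was at 3.19 in PID+ (interval 0 to 13.0) and 2.85 in PID- cells (0 to 13.2). Insl3 was not called, and the other 6 were too low for a call. Ins2 is the neighbor of Igf2, 11840 bases away on chromosome 7.

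Igf2r was the only receptor among the members. It had an FPKM of 18.1 in PID+ cells (interval 3.49 to 32.7) and 35.8 in PID- cells (12.3 to 59.3), for a log2 change of -0.95 that did not reach 3-fold. The value in PID+ lies inside the interval of PID- cells. Igf1r, the signaling receptor for both ligands, showed the opposite order, with 16.4 in PID+ (6.35 to 26.5) and 9.25 in PID- cells (2.96 to 15.5). Its log2 change was 0.77 as deposited and 0.19 with equal Gapdh. A ratio within a condition does not depend on the scaling between conditions. The FPKM of Igf2r was 1.10 times that of Igf1r in PID+ cells and 3.87 times in PID- cells. Igf2r overlaps the antisense transcript Airn, a noncoding RNA that silences Igf2r on the paternal allele, but they share 0 annotated exon bases.

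The other mannose 6-phosphate receptor and its sorting partners gave a background for Igf2r. M6pr, the small receptor that carries lysosomal enzymes but does not bind IGF2, had 70.4 in PID+ and 44.1 in PID- cells, for a ratio to Igf2r of 3.90 in PID+ and 1.23 in PID- cells. All 10 listed genes of this sorting route reached an FPKM of 2 and 0 changed 3-fold, with a median log2 change of -0.14. Vps35, the core of the retromer that returns these receptors from endosomes, was the most abundant of them, at 102 in PID+ and 120 in PID- cells. Ctsd, a lysosomal protease that is a known cargo, had 423 and 360.

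Igfbp3 was the most abundant member by far. Its product is the main carrier of IGFs in blood and is also made by epithelial cells. Its FPKM was 291 in PID+ cells (interval 130 to 452) and 151 in PID- cells (66.6 to 235), for a log2 change of 0.94 as deposited and 0.32 with equal Gapdh, both below 2-fold. The gene ranked 245th of 21959 genes by FPKM in PID+ cells and 494th in PID- cells. In PID+ cells its interval lay above those of all other members. In PID- cells it lay above those of Igf2r and of Igfbp4, the latter by a narrow margin (upper bound 65.9), and overlapped that of Igfbp7.

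Igfbp4 was the member that changed. The protein generally inhibits IGF action and is cut by the protease PAPP-A. Its FPKM was 9.22 in PID+ cells (interval 0 to 20.6) and 30.8 in PID- cells (0 to 65.9). This is 3.35-fold lower in PID+ cells on the FPKM scale and a log2 change of -1.64 with 1 added, just past the threshold of 1.58. The intervals overlap widely, and both reach 0. Of the 11035 genes, 3.16% had a larger fall.

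Igfbp7, which binds IGFs weakly and is known from vessel walls and from senescent cells, stayed inside 3-fold as deposited. It had 17.6 in PID+ cells (interval 0 to 47.6) and 38.7 in PID- cells (0 to 82.7), for a log2 change of -1.09 that became -1.67 with equal Gapdh, past the call. Its annotated exons share 85 of 1209 bases with Polr2b on the other strand. Polr2b, a subunit of RNA polymerase II, had 34.7 in PID+ and 31.2 in PID- cells, and reads in the shared stretch cannot be told apart without strand. Igf2r, Igfbp4 and Igfbp7 lay between 30.8 and 38.7 in PID- cells and between 9.22 and 18.1 in PID+ cells, and within each condition these 3 do not differ beyond their intervals.

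The remaining 4 binding protein genes were near 0. Igfbp6, whose product prefers IGF2, was the highest of them, with 0.0473 in PID+ (interval 0 to 0.151) and 0.676 in PID- cells (0 to 1.97). By the same estimate, these levels rest on about 3 and 59 reads. The ratio of PID- to PID+ was 14.3, with a counting interval of 4.68 to 71.6, and the log2 change with 1 added was -0.68. Igfbp5, a binding protein held in the matrix, had 0.00754 and 0.117, about 3 and 64 reads, a ratio of 15.5 with a counting interval of 5.10 to 77.5. Both counting intervals lay above 1, while the deposited intervals, which come from CuffDiff's own error model, overlapped. Igfbp2, often raised in epithelial cancers, and Igfbp1, a liver protein controlled by insulin, were listed at 0 in PID+ cells and at 0.0527 and 0.00792 in PID- cells. No fold is given for these. Neither reached the level of 2 used for calls.

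Summed over the 7 Igfbp genes, the deposited FPKM came to 318 in PID+ and 221 in PID- cells. Against the same 221, the sum in PID+ was 296 with equal total FPKM and 320 with equal upper quartiles. It was 206 when the conditions were scaled to equal Gapdh, a gene that itself had 2570 in PID+ and 1666 in PID- cells. The make-up of this sum does not depend on the scaling. Igfbp3 supplied 91.5% of it in PID+ and 68.2% in PID- cells, Igfbp7 5.55% and 17.5%, and Igfbp4 2.90% and 13.9%. The other 4 genes supplied 0.0173% and 0.386%. The FPKM of Igfbp3 was 31.6 times that of Igfbp4 in PID+ and 4.89 times in PID- cells, and 16.5 and 3.90 times that of Igfbp7. Without Igfbp3 the sum was 26.9 in PID+ and 70.4 in PID- cells.

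**Figure D2:**
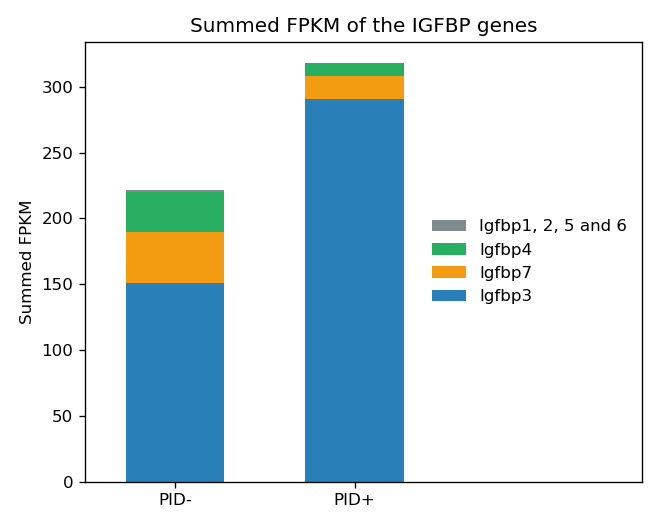
Summed FPKM of the 7 Igfbp genes in PID- and PID+ cells as deposited, split by gene, with 1 pooled value per condition and no error bar. Igfbp3 makes up 68.2% of the sum in PID- and 91.5% in PID+ cells, and Igfbp1, Igfbp2, Igfbp5 and Igfbp6 together are barely visible. The sum stays higher in PID+ cells with equal total FPKM (296) and with equal upper quartiles (320). With equal Gapdh the order turns, to 206 in PID+ and 221 in PID- cells.

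The receptor and adaptor genes that act after the ligands included Grb10 and Grb14, which went opposite ways. Of 10 listed, 8 reached an FPKM of 2, with 2 at least 3-fold higher, 1 at least 3-fold lower and a median log2 change of -0.19. Grb10, an imprinted adaptor that restrains the insulin and IGF receptors, fell from 9.88 in PID- cells (interval 3.44 to 16.3) to 0.248 in PID+ cells (0 to 0.747), a log2 change of -3.12. Its relative Grb14, also an inhibitor of the insulin receptor, rose from 1.24 (0 to 2.94) to 17.7 (upper bound 31.3), a log2 change of 3.06. Grb10 reached an FPKM of 2 in PID- cells alone and Grb14 in PID+ cells alone, so their calls follow in part from that level. These were the only genes of that list whose intervals were apart. The ratio of Grb14 to Grb10 was 71.1 in PID+ and 0.125 in PID- cells.

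The insulin receptor substrates, which dock PI3K to the active receptors, differed from each other. Irs2 had 13.2 in PID+ (4.68 to 21.6) and 3.59 in PID- cells (0.144 to 7.03), for a log2 change of 1.63 that was called as deposited and became 1.53 with equal total FPKM and 1.06 with equal Gapdh, below the call. Irs1 had 6.12 in PID+ and 8.54 in PID- cells, for a log2 change of -0.42. Irs2 was thus 2.15 times Irs1 in PID+ cells and 0.420 times in PID- cells. Insr, the insulin receptor, had 7.59 and 8.16, with a log2 change of -0.09. This became 0.03 when its chromosome median was subtracted and -0.63 with equal Gapdh. Shc1, the adaptor toward the MAP kinases, was the most abundant of the list at 37.8 in PID+ and 46.4 in PID- cells.

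Further down, none of the 17 listed genes of the PI3K and Akt arm changed 3-fold, and their median log2 change was -0.24. Akt1, its most abundant gene, had 131 in PID+ and 128 in PID- cells.

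**Figure D3:**
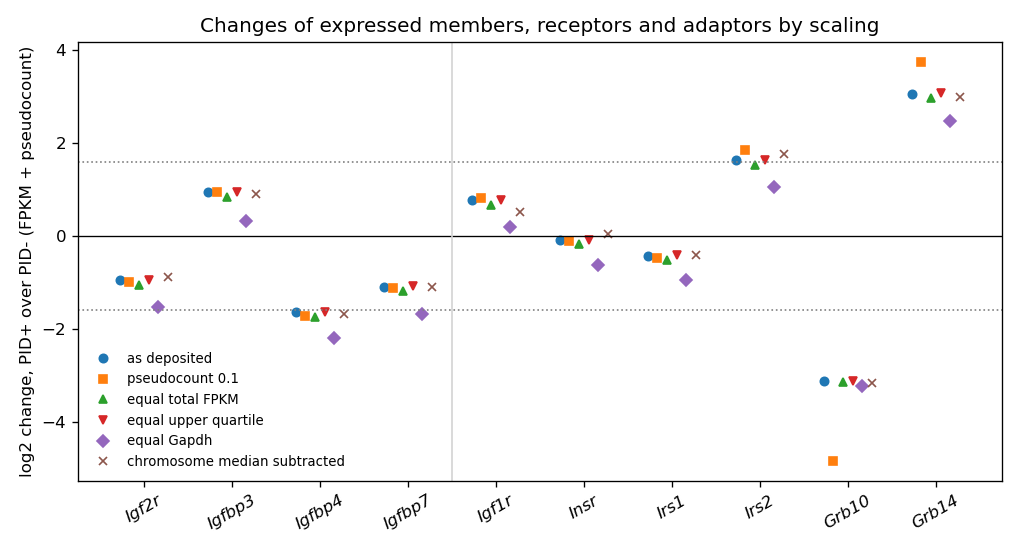
Log2 change of PID+ over PID- for the 4 expressed members (left of the grey line) and for receptors and adaptors (right), as deposited and under 5 other settings; dotted lines mark 3-fold. Igfbp4 stays past the line in each setting, Igfbp7 crosses it with equal Gapdh at -1.67, Irs2 drops inside it with equal total FPKM and with equal Gapdh, Insr turns sign after the chromosome median is subtracted, and Grb10 and Grb14 lie farthest from 0.

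Genes that cut or carry the binding proteins were partly near 0. Of 10 listed, 5 reached an FPKM of 2, with 0 higher and 1 lower at 3-fold and a median log2 change of -0.05. Pappa, which encodes PAPP-A, the protease of IGFBP4, was at 0.00270 in PID+ and 0.0108 in PID- cells, and Igfals, the third partner of circulating IGF complexes, was listed at 0 and at 0.0110. Stc2, an inhibitor of PAPP-A, had 10.6 in PID+ (3.37 to 17.8) and 33.9 in PID- cells (11.5 to 56.3), for a log2 change of -1.59. This change slipped barely below the call with equal upper quartiles. It stayed past the call with equal total FPKM (-1.69), equal Gapdh (-2.15), a pseudocount of 0.1 (-1.67) and the chromosome median subtracted (-1.63). Adam12, a membrane protease that can cut IGFBP3 and IGFBP5, had 57.6 in PID+ (0.573 to 115) and 27.5 in PID- cells (2.08 to 53.0) and was not called. Ctsd, which can also cut binding proteins, was the most abundant of this list.

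Among regulators of Igf2, 8 of 9 listed genes were analysed, 5 reached an FPKM of 2 and 1 changed. Plagl1, an imprinted zinc finger factor that can activate Igf2, rose from 0.359 in PID- (interval 0 to 1.43) to 4.87 in PID+ cells (0 to 14.7), a log2 change of 2.11. Hmga2, a chromatin protein, was the most abundant, at 145 in PID+ and 117 in PID- cells. Plagl1 reached an FPKM of 2 in PID+ cells alone. Over the 5 that reached an FPKM of 2, the median log2 change was 0.31, the value of Hmga2, and it turned to -0.31 with equal Gapdh. H19, the noncoding RNA imprinted opposite to Igf2, was not analysed here.

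Proteins that share the amino-terminal domain of the binding proteins, mainly the CCN family of matrix proteins, held 4 called genes, of which the 3 lower ones reached an FPKM of 2 through PID- cells alone. Of 12 listed, 6 reached an FPKM of 2, with 1 at least 3-fold higher and 3 at least 3-fold lower. The median log2 change of -0.96 over these 6 follows in part from that level. Over all 12 listed, 6 were higher and 6 lower in PID+ cells. Ccn2, the most abundant, had 1024 in PID+ and 994 in PID- cells. Ccn1, a matrix protein of adhesion, had 165 (75.7 to 255) and 51.2 (21.3 to 81.1), a log2 change of 1.67 that was 1.57 with equal total FPKM, 1.05 with equal Gapdh and 1.42 with its chromosome median subtracted, each below the call. Ccn5 fell from 6.97 to 0.133 and Ccn3 from 2.69 to 0.0599. Ccn4, a Wnt target, fell from 6.45 to 0.398, with intervals apart.

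The markers of the labelled cell type were present in part. Of 10 epithelial markers, 8 reached an FPKM of 2, adding up to 8811 in PID+ and 4889 in PID- cells over all 10, or 5712 against 4889 with equal Gapdh. By FPKM 7 of the 10 were higher in PID+ cells and 2 lower, or 6 and 3 with equal Gapdh. The 2 lower as deposited were Cdx2 and Lgals4, the latter at 1.86 in PID+ and 3.43 in PID- cells. Krt19, the most abundant by the mean of both conditions, had 2469 and 2073, for a log2 change of 0.25 that became -0.37 with equal Gapdh. Krt8 had 2745 and 1319, Krt18 2843 and 1199, and Krt20 158 and 73.5. Their log2 changes of 1.06, 1.24 and 1.10 became 0.43, 0.62 and 0.48 with equal Gapdh. Cdh1, the E-cadherin of epithelial junctions, had 192 and 88.0, for a log2 change of 1.12 that became 0.50. Epcam was called 3-fold higher in PID+ cells, at 401 against 124, with a log2 change of 1.68 that fell below the call with equal total FPKM and was 1.06 with equal Gapdh. Cdx1, a homeobox factor of the intestine, was listed at 0 in both conditions, and Vil1, the villin of brush borders, was at 0.175 in PID+ and 0.0614 in PID- cells. Cdx2, another homeobox factor of the intestine, was called 3-fold lower, at 0.542 against 8.04, and reached an FPKM of 2 in PID- cells alone.

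Of 9 fibroblast markers, 8 had a lower FPKM in PID+ cells, as Igfbp4 did, and 1 (Lum) was listed at 0 in both conditions. The call of 3-fold lower was met by 4, of which Col1a2, Col3a1 and Dcn reached an FPKM of 2 through PID- cells alone, so that their difference follows in part from that level. Over the list, FPKM added up to 3.08 in PID+ cells and to 34.2 in PID- cells. Col1a1, the most abundant by mean, had 2.32 and 11.9, and Col1a2 had 0.0654 and 11.9 with intervals apart. Col3a1 had 0.339 and 6.35. Dcn and Thy1 were listed at 0 in PID+ cells, with 2.39 and 0.377 in PID- cells. Pdgfra, at 0.188 and 0.243, and Fap, at 0.0736 and 0.0918, differed little. Their part in the lower values of Igfbp4, Igfbp5, Igfbp6, Igfbp7 and Igf1 was not tested. In bulk samples such as these, fewer cells of a type and less RNA per cell cannot be told apart.

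Most markers of other cells were below an FPKM of 1 in both conditions, with Cd68 the main exception. The 5 smooth muscle genes added up to 5.77 in PID+ and 13.0 in PID- cells, with Acta2 the most abundant at 4.39 and 9.76, and 0 of the 2 that reached an FPKM of 2 changed 3-fold. The 6 endothelial genes summed to 4.06 and 1.41, of which Kdr alone was 3.33 and 1.01. The 6 immune genes summed to 21.9 and 17.1, nearly all from Cd68 at 21.8 and 16.8, and Cd3e was listed at 0 in both. With equal Gapdh the order of the immune sums turned, to 14.2 in PID+ and 17.1 in PID- cells. The part of these other cells in the values of the IGF genes was not tested.

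By position in GRCm38, the members include 2 adjacent pairs. Igfbp1 (chr11:7197782-7202546, forward strand) and Igfbp3 (chr11:7206086-7213923, reverse strand) lie 3539 bases apart with their ends facing each other, and Igfbp2 (chr1:72824503-72852474) and Igfbp5 (chr1:72857932-72874884) lie 5457 bases apart in the same arrangement. Within the first pair the levels were unlike, with Igfbp1 at or near 0 beside Igfbp3 at 291 and 151. In the second pair both were near 0. Igfbp4 (ENSMUSG00000017493.9) lies on the same chromosome as the first pair, at chr11:99041244-99054392. Igf2r lies at chr17:12682406-12769664, Igfbp7 at chr5:77349240-77408041 and Igfbp6 at chr15:102144362-102149511. The ligand genes lie at chr10:87858265-87937042 (Igf1) and chr7:142650766-142666816 (Igf2). Over genes that averaged 5 FPKM or more, the median log2 change of these chromosomes ran from -0.06 on chromosome 17 to 0.25 on chromosome 7, and was 0.04 on chromosome 11.

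The 21 analysed protein coding genes within 100 kb of a member that are not members themselves held 1 change of 3-fold among the 14 that reached an FPKM of 2. It was Tns4, a focal adhesion protein 11286 bases from Igfbp4, at 71.2 in PID+ and 22.9 in PID- cells, for a log2 change of 1.60 opposite in direction to that of Igfbp4. The call was lost with equal total FPKM (1.49), with equal Gapdh (0.98) and after subtraction of the chromosome median (1.56). Top2a, the topoisomerase of dividing cells, lies 17055 bases from Igfbp4 and had 257 and 138. Rara, a retinoic acid receptor 66302 bases away, had 10.7 and 15.3, and Gjd3 and Ccr7 stayed below 1. Adcy1, the single neighbor of Igfbp1 and Igfbp3 beyond the pair, had 13.1 and 8.33. Around Igfbp6, 8 of 8 neighbors had log2 changes below 0 as deposited, from -1.31 for Tns2, at 1.68 and 5.62, to -0.03 for Zfp740, and 0 were called. Of the 11035 genes, 50.6% lay below 0. The nearest of them, Soat2, had 0.0288 in PID+ and 1.05 in PID- cells. The others were Eif4b, Spryd3, Csad, Itgb7 and Rarg. Near Igfbp7, Rest and Noa1 had log2 changes of 0.07 and -0.01. Near Igf2r, Slc22a2 was listed at 0, and Mas1 had 0.165 and 0.157.

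Upstream sequences of all 10 members were found in the RefSeq promoter table (GRCm38.p6). The 250 bases before each start were searched on both strands for 4 motifs. The E-box was CACCTG, which reads CAGGTG on the opposite strand. The letters for AP-1 were TGACTCA, those for TCF/LEF factors were CTTTGAT, and the TATA box was searched as TATAAA. Of all 32851 such windows, 17.2% held the E-box, 4.46% the AP-1 letters, 3.21% the TCF/LEF letters and 12.4% the TATA box. Igfbp3 held an E-box with its first base 172 bases before the start, and Igf2r held one at 65 bases. Igfbp4 held a TATA box 28 bases before the start and Igfbp6 one at 148 bases. Igfbp2 held the AP-1 letters at 39 bases in 1 of its 2 windows. The TCF/LEF letters were found in no member, and the windows of Igf1, Igf2, Igfbp1, Igfbp5 and Igfbp7 held none of the 4 motifs. A match is a description and not a bound site.

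Upstream sequences are shown for Igfbp4, the member that was called, and for Igfbp3, which supplied most of the Igfbp sum and was chosen after its values were seen. Capitals mark the TATA box in Igfbp4 and the E-box in Igfbp3. The windows are chr11:99040994-99041243 on the forward strand for Igfbp4 and chr11:7213924-7214173 on the reverse strand for Igfbp3, with GC contents of 69.2% and 73.2% beside a median of 52.4% over all windows.
Igfbp4: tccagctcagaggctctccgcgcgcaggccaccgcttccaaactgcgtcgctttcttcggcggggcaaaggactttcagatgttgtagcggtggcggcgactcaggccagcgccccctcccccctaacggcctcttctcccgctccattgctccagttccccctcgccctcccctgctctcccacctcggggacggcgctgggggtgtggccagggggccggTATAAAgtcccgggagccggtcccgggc
Igfbp3: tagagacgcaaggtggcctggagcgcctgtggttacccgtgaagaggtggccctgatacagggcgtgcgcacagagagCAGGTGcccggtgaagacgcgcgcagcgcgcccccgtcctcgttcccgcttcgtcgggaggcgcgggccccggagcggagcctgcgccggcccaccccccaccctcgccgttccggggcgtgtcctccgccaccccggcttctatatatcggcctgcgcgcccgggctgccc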

How the data were processed

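RNA-seq of PID+ and PID- cells was compared. According to the labels and methods, the authors trimmed reads with CutAdapt and aligned them to GRCm38.p3 with TopHat and Bowtie2, guided by protein coding annotation. They pooled the 3 sets of a condition in 1 alignment and deposited the FPKM of CuffDiff (compatible hits normalization) with its interval bounds. The rows named treated were taken as PID+ and those named untreated as PID-, and this could not be checked on the transgene. The deposited standard deviation was not used. The labels do not state paired reads and the methods do. The numbers of the PID- mice differ between labels and paper.

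Of 21966 genes, 7 without an OK status in a condition were left out. Log2 changes are log2((FPKM PID+ + 1)/(FPKM PID- + 1)). Calls ask for a 3-fold change in genes that reach 2 FPKM in either condition. Named genes are all members, Igf1r, Insr, Irs1 and Irs2, the most abundant gene of each list and those changed 3-fold (up to 4 per list), and protein coding neighbors within 100 kb. The values of 1 neighbor are not reported here. M6pr, Ctsd beside Igf2r, Pappa, Igfals, Adam12 and the individual cell type markers were named after their values were seen. Members and lists were chosen with earlier results of these data known.

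The value of a read was estimated in genes with 1 transcript from FPKM times transcript length less 190 bases. This length was the one of 16 tried that left the most values within 0.1 of a whole number (89.6% of 878 values in PID+ and 90.4% of 813 in PID-). The FPKM value of a read in PID+ cells was 1.37 times that in PID- cells, and the depth itself is unknown. Estimated reads of genes with several transcripts use the longest and are approximate. Counting intervals are exact (Clopper-Pearson, 95%). Symbols and older names came from the RefSeq table, and positions and transcripts from Gencode M21. As alternatives, the conditions were scaled to the same total, upper quartile or Gapdh, the pseudocount was set to 0.1, the chromosome median (over genes averaging 5 FPKM or more) was subtracted, members averaging below 5 were dropped, and calls were made at 2-fold or where intervals were apart. Protein sequences were not used here. Steps were tested on simulated data. Calculations ran in Python 3.11.15 with pandas 2.3.3, numpy 2.4.6 and scipy 1.17.1, and plots in matplotlib 3.10.9.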

Additional observations from a re-analysis of the deposited data

How the results depend on the processing

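The count of 0 members at least 3-fold higher was 0 in each of the 8 alternatives. The count of 1 member at least 3-fold lower became 2 with equal Gapdh, 2 at 2-fold and 0 when deposited intervals had to be apart, and was 1 in the other 5. The median log2 change of -0.18 became -0.998 with a pseudocount of 0.1, which gives low genes more weight, and -1.02 over the 4 members with a mean FPKM of at least 5, by leaving out the others. Of 50 pairs of a member and an alternative, 1 turned direction, Igf2 with its chromosome median subtracted. That median, 0.25, exceeds the Igf2 change of 0.16, which the added 1 shrinks and which was 0.88 with a pseudocount of 0.1. The turn therefore does not settle the direction of Igf2. Equal total FPKM moved the median log2 change of the 11035 genes from -0.01 to -0.10, and equal Gapdh moved it to -0.58, where 76 genes were at least 3-fold higher and 662 lower, against 229 and 377 as deposited. With equal Gapdh, the log2 change was -2.19 for Igfbp4, -1.67 for Igfbp7, -1.53 for Igf2r and 0.32 for Igfbp3. Less that median these are -1.61, -1.10, -0.95 and 0.90, which by construction lie near the deposited values, since a single factor is put in and taken out.

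No leave-one-out and no paired analysis was possible because the table holds 1 pooled value per condition. The intervals limit what can be said of each gene: their half-width was 124% of the FPKM of Igfbp4 in PID+ and 114% in PID- cells, against medians of 85.8% and 83.9% over the 11035 genes. Differences among the cultures of single mice were not tested.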
